A study of Arabidopsis thaliana with 15 samples.

Results

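Transcripts of 10 Arabidopsis thaliana genes were followed across 5 groups of plants. They were the jasmonate synthesis genes LOX2 (AT3G45140), LOX3 (AT1G17420), LOX4 (AT1G72520), AOS (AT5G42650), AOC1 (AT3G25760), AOC2 (AT3G25770), AOC3 (AT3G25780) and OPR3 (AT2G06050), and the vegetative storage protein genes VSP1 (AT5G24780) and VSP2 (AT5G24770). They were chosen by gene identifier for their place in the pathway, with earlier results of these data known. They are 10 of 33977 features in the count tables, and all 10 passed the expression filter in each comparison. RNA-seq was made from 15 Col-0 plants, 3 in each of Gen1 memory, Gen1 nonmemory, Gen1 WT, Gen5 memory and Gen5 WT. The tissue is named whole rosette in the sample labels and whole plant in the protocol.

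Gen1 memory plants were transgene-null progeny of a single MSH1-RNAi parent plant and kept the altered msh1 phenotype, and Gen1 nonmemory plants were transgene-null sibs of normal appearance. No plant sequenced here carried the transgene, but both of these groups descended from a parent in which MSH1, a nuclear gene for an organellar protein, was silenced. WT plants came from transformation events without the RNAi construct and were grown alongside the memory plants of their generation. Gen5 memory plants descended from the Gen1 memory line by selfing, so they stand for one selected lineage. Plants were sampled at bolting, and no age in days is given. The study describes memory plants as slower in growth and late to flower, so memory plants may have been older than their controls when sampled. Age at sampling and memory state cannot be told apart here.

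Jasmonate is made from linolenic acid of plastid membranes. Lipoxygenases (LOX) add oxygen to the fatty acid, allene oxide synthase (AOS) and allene oxide cyclase (AOC) turn the product into the cyclic precursor OPDA, and in the peroxisome the OPDA reductase OPR3 begins its conversion to jasmonic acid. JAR1 joins the acid to isoleucine, and the conjugate makes the receptor COI1 bind JAZ repressors for degradation, which frees MYC2 and related factors to activate target genes. Many synthesis genes and most JAZ genes are themselves targets of the pathway, which is known in leaves for responses to wounding, touch and insects. VSP1 and VSP2 encode acid phosphatase-like storage proteins of vegetative tissue and are widely used as readouts of the MYC2 branch.

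In outline, LOX4 was lower in memory plants than in each control group, by 3.58- to 4.25-fold. OPR3 was 1.79- and 1.55-fold lower than in nonmemory and Gen5 WT, and 1.38-fold lower than in Gen1 WT, which was under the fold threshold. LOX3, the closest relative of LOX4 among the members, was 1.44- and 1.47-fold higher in memory than in WT of the same generation. Against nonmemory LOX3 was 1.11-fold higher and not called, and both WT calls were lost with raw library scaling. VSP2 was 2.38- and 2.19-fold higher in Gen1 memory than in its 2 Gen1 controls. The Gen1 WT call of VSP2 held in only 2 of 6 fits with a plant left out, and VSP2 was not called in Gen5. LOX2, the most abundant member, was called in no comparison.

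AOC1, AOC2 and AOC3 stand in a row on the plus strand of chromosome 3 and VSP1 and VSP2 are near neighbours on the minus strand of chromosome 5 (TAIR10.1, 1-based). AOC1 runs from 9403779 to 9405338, AOC2 from 9406669 to 9408071 and AOC3 from 9409160 to 9411090, with gaps of 1330 and 1088 bases between them. VSP2 occupies 8500468 to 8502224 and VSP1 8507590 to 8509201. LOX3 (5977323 to 5981521) and LOX4 (27308513 to 27312756) lie far apart on the plus strand of chromosome 1, LOX2 (16525245 to 16529352) on the plus strand of chromosome 3, AOS (17097564 to 17099595) on the minus strand of chromosome 5 and OPR3 (2359114 to 2362375) on the minus strand of chromosome 2. No annotated gene overlaps any of the 10, so their reads could not be shared with an annotated antisense gene, whether or not counting used strand.

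Related members could in principle trade reads. Coding sequences were 79.5% identical between LOX3 and LOX4, 89.9% between AOC1 and AOC2, 81.2% between AOC1 and AOC3, 80.8% between AOC2 and AOC3 and 88.1% between VSP1 and VSP2. Nevertheless, no stretch of 150 exon bases of any member, the length of one read, occurred a second time in the nuclear chromosomes. Of stretches of 50 bases, 2.2% in AOC1, 1.6% in AOC3, 0.42% in VSP1, 0.353% in VSP2 and 0.0832% in AOC2 were repeated, and none in the others. Reads of these genes could therefore be placed almost throughout by their own sequence.

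Promoters are shown for LOX4 and AOS, whose memory plants lay outside the range of all other plants in normalized counts. They are also shown for LOX3, OPR3 and VSP2, which were called in 2 of the 3 memory comparisons. How many of all genes separate memory from all other plants was not counted, so such ranges describe the members only, here and below. Promoters are given as the 250 bases before the annotated gene start (TAIR10.1, RefSeq annotation, written along the gene's strand). Capitals mark the hexamers CACGTG (the G-box, bound by MYC2 and many other factors), CACATG or CACGTT, each searched on both strands.
LOX3, chr1:5977073-5977322, plus strand: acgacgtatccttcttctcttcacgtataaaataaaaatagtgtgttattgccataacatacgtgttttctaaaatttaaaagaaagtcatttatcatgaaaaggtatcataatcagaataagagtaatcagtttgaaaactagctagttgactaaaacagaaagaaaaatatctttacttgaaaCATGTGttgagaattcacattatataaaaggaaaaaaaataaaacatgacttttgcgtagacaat
LOX4, chr1:27308263-27308512, plus strand: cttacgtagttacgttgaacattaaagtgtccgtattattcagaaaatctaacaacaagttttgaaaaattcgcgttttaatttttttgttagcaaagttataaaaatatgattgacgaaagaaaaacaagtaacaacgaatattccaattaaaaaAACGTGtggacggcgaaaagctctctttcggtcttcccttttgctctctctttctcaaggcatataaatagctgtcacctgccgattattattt
AOS, chr5:17099596-17099845, minus strand: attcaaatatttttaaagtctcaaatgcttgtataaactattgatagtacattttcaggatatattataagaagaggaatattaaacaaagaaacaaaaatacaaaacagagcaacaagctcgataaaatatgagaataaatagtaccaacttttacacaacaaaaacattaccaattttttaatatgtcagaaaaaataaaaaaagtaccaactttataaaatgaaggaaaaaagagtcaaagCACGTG
OPR3, chr2:2362376-2362625, minus strand: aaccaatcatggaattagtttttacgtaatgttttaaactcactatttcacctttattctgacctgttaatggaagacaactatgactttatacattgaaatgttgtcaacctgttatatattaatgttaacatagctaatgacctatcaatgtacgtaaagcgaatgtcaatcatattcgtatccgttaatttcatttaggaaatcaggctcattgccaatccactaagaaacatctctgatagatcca
VSP2, chr5:8502225-8502474, minus strand: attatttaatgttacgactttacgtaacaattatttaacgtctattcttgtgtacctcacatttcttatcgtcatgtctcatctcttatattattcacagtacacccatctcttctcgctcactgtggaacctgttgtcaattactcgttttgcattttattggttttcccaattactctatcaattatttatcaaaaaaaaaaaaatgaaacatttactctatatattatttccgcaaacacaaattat
The G-box was found in 1 of 10 member promoters, 6 bases before the start of AOS, and in 6.49% of the 27443 promoters of nuclear protein-coding genes in windows of the same length. CACATG was found in 2 members (LOX3, 65 bases before the start, and LOX2, 97 bases before it) and in 11.1% of all promoters. CACGTT was found in 3 members (LOX4 at 94, AOC1 at 138 and VSP1 at 170 bases before the start) and in 7.54% of all promoters. The windows of OPR3, VSP2, AOC2 and AOC3 held none of these letters. A match is a description of the sequence only.

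Each plant had 77169986 to 79202824 counts on genes, so depth differed little. Leaf markers were high in all plants, whereas the floral identity gene LFY was at 0 in all 15 and AP1 at 1.92 normalized counts or fewer, and the root hair genes RHD6 and EXPA7 were at 0. Of the other root markers, WOX5 reached 6.78 and PYK10 45.3, while SHR had 618 to 940 normalized counts in every plant, and the 5 root markers summed to 621 to 943. Among the other floral markers AG had 27.5 to 97.6 and SEP3 5.66 to 34.0 normalized counts. The 10 floral markers summed to 65.7 to 134 normalized counts. Their sums were 74.1 to 82.6 in Gen1 memory against 117 to 129 in Gen1 WT, and 83.4 to 92.0 against 102 to 134 in Gen5. Nonmemory plants had 65.7 to 111. Of 3 floral markers tested against Gen1 WT, 1 was called higher and 2 lower. None was called against nonmemory (2 tested) or in Gen5 (3 tested). The sum of 5 leaf markers, in units of 1e+06 normalized counts, ranged from 4.05 to 4.89 in memory plants and from 2.36 to 2.81 in the others, and the sum of 7 touch-induced genes from 8896 to 20959.8 in memory plants and from 59414 to 145781 in the others. Both sums thus separated memory from all other plants, although of the leaf markers only CAB1, CAB3 and RCA did so singly and RBCS1A and CA1 overlapped. Their part in the results that follow was not tested. In such bulk samples, fewer cells of a type and less RNA per cell cannot be told apart.

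Levels between genes were compared per kilobase of exon. LOX2, the main wound-responsive lipoxygenase of leaves, had a mean of 67816 normalized counts per kb over the 15 plants. AOC2 followed with 25143, AOS with 15953.5 and OPR3 with 5139.63. AOC1 had 2426, VSP2 1511, LOX3 909, VSP1 766, LOX4 732 and AOC3 309 per kb. The members thus spanned levels from that of LOX2 to that of AOC3, which took only 0.352% to 1.97% of the AOC1 to AOC3 total per kb in any plant. The level of VSP1 varied most, with a highest plant 19.7 times the lowest, followed by LOX4 with 8.52 and VSP2 with 6.3. LOX2 varied least, 1.35 times.

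**Figure D1:**
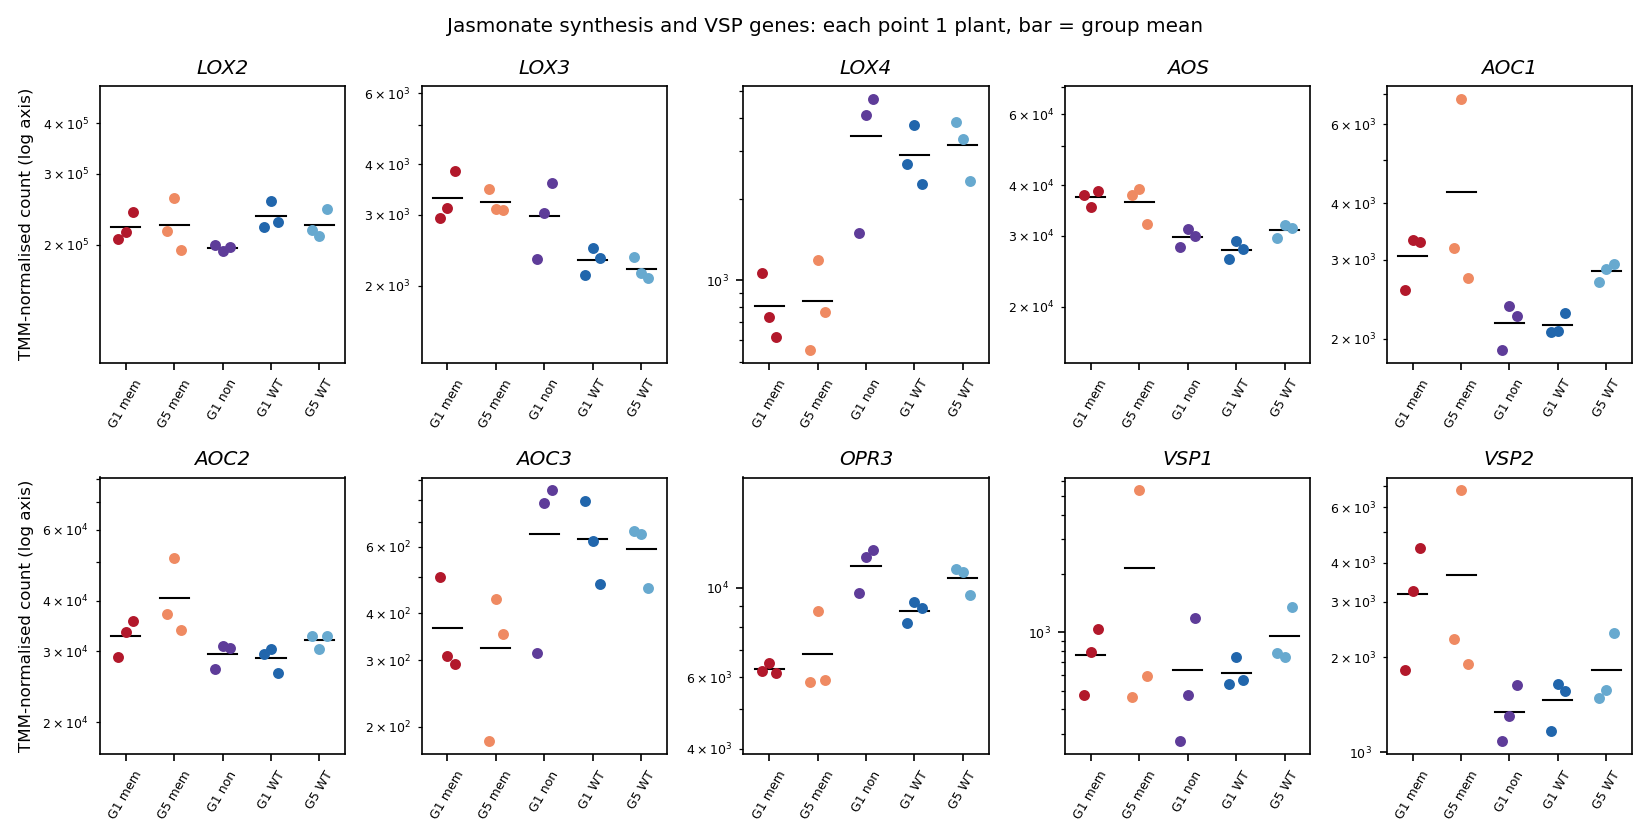
TMM-normalized counts of the 10 genes on log axes, 1 point per plant and a bar at the mean of 3 plants (G1 mem, Gen1 memory; G5 mem, Gen5 memory; G1 non, Gen1 nonmemory; G1 WT and G5 WT). All 6 memory plants lie below the 9 others in LOX4 and, on this scaling, above them in AOS. Gen5 memory plant 2 stands high in AOC1, VSP1 and VSP2.

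LOX4 separated the groups most clearly. It had 1066, 730 and 619 normalized counts in the 3 Gen1 memory plants and 552, 1194 and 766 in Gen5 memory. Gen1 nonmemory plants had 1502, 4077 and 4707, Gen1 WT 2691, 3757 and 2276, and Gen5 WT 3841, 3327 and 2340. Every memory plant was thus below every other plant, the closest being Gen5 memory plant 2 and nonmemory plant 1. LOX4 encodes a lipoxygenase that, with LOX3, is needed for full male fertility and contributes to jasmonate in wounded leaves.

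A gene was called where edgeR's adjusted p-value was below 0.05 and the log2 fold change exceeded 0.5 in either direction. LOX4 fell by 2.09 ± 0.415 on the log2 scale in memory against nonmemory (SE, 3 plants per group, edgeR adjusted p = 0.00648). Against Gen1 WT it fell by 1.84 ± 0.249 (edgeR adjusted p = 0.0017), and in Gen5 memory against Gen5 WT by 1.92 ± 0.283 (edgeR adjusted p = 0.00125). The Gen1 memory plants are the same in both Gen1 comparisons. Each of the 3 calls held when any plant was left out, with log2 fold changes from -2.45 to -1.61. In nonmemory plant 1, where LOX4 was lowest among the controls, the touch-induced genes also had their lowest sum among the controls, 59414, and a part of this in the LOX4 values was not tested.

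LOX3 moved the other way. It had 2937, 3117 and 3849 normalized counts in Gen1 memory and 3484, 3095 and 3083 in Gen5 memory. Levels were 2129, 2480 and 2340 in Gen1 WT and 2352, 2157 and 2098 in Gen5 WT, so memory plants did not overlap WT plants. Nonmemory plants had 2329, 3032 and 3597 and overlapped both. LOX3 rose by 0.52 ± 0.115 against Gen1 WT (edgeR adjusted p = 0.0124) and by 0.55 ± 0.0838 in Gen5 (edgeR adjusted p = 0.00144), close above the fold threshold. Against nonmemory its log2 fold change was 0.15 (edgeR adjusted p = 0.515), with a 95% interval from -0.32 to 0.61. The Gen1 WT call was lost without Gen1 memory replicate 3 or Gen1 WT replicate 1 (lowest log2 fold change 0.40) and the Gen5 call without Gen5 memory replicate 1 (0.48). Both were lost with raw library scaling (0.34 and 0.38).

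The balance of these lipoxygenases differed between the groups. The ratio of LOX3 to LOX4 per kb within a plant ranged from 2.56 to 6.23 in the 6 memory plants (median 4.09) and from 0.604 to 1.53 in the 9 others (median 0.754). LOX3 exceeded LOX4 in all memory plants, but in only 2 of the others. LOX2 remained the bulk of lipoxygenase transcript, at 47.9 to 57.6 times the sum of LOX3 and LOX4 per kb in memory plants and 22.4 to 52.2 times in the others, ranges that overlap.

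**Figure D2:**
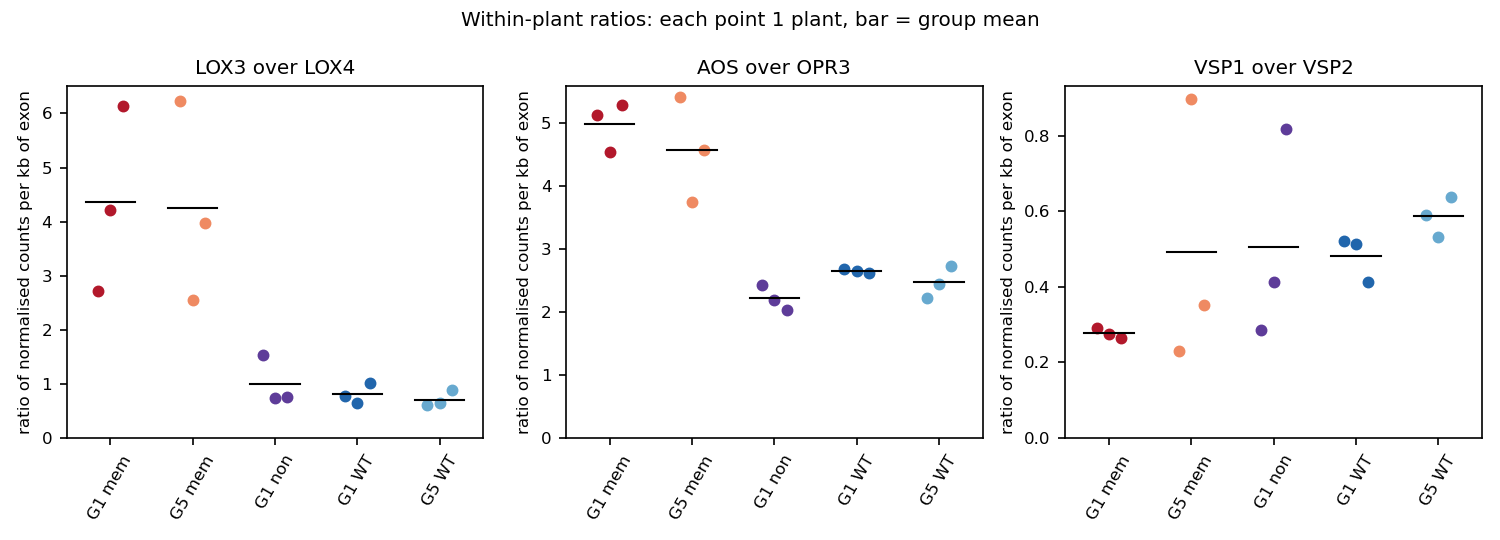
Ratios of normalized counts per kb of exon within each plant, 1 point per plant and a bar at the group mean, on linear axes from 0 (group names as in the plot of levels). LOX3 over LOX4 is 2.56 or more in memory plants and at most 1.53 in the others, AOS over OPR3 is 3.75 or more against at most 2.74, and VSP1 over VSP2 overlaps between memory and control plants.

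LOX2 itself was called in none of the comparisons. It had 207181, 214869 and 241816 normalized counts in Gen1 memory, 216941, 261474 and 194848 in Gen5 memory and 199916, 193617 and 197719 in nonmemory. Gen1 WT plants had 222161, 256564 and 227840 and Gen5 WT plants 217273, 209968 and 245866. Group means ran in the order Gen1 WT, Gen5 memory, Gen5 WT, Gen1 memory and nonmemory. Neighbours in this order overlapped except for the last step, where each Gen1 memory plant was above each nonmemory plant. Log2 fold changes in memory were 0.17, -0.08 and 0.00, with 95% intervals from -0.08 to 0.42, -0.37 to 0.21 and -0.35 to 0.35 against nonmemory, Gen1 WT and Gen5 WT.

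AOS, the first enzyme committed to this branch of oxylipin synthesis, differed by less than the fold threshold but without overlap in normalized counts. Memory plants had 37932, 35250 and 38832 normalized counts in Gen1 and 37772, 39149 and 32064 in Gen5. The 9 other plants lay between 26209.5 and 31977, with a median of 29621, so every memory plant was above them. In CPM, however, memory and other plants overlapped. Gen5 memory plant 3 had 391 CPM, below Gen5 WT plant 2 with 428 and nonmemory plant 2 with 412. Log2 fold changes were 0.33 against nonmemory (edgeR adjusted p = 0.0125), 0.44 against Gen1 WT (edgeR adjusted p = 0.00603) and 0.23 in Gen5 (edgeR adjusted p = 0.0844), none called. AOS is the one member with a G-box in the printed window.

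The AOC genes, which encode the cyclase that sets the stereochemistry of OPDA, did not move together. AOC1 stood at 2568, 3319 and 3278 normalized counts in the Gen1 memory plants, against 1889.6, 2371 and 2252 in nonmemory. Gen1 WT had 2067, 2086 and 2287, so all Gen1 memory plants were above both. In CPM, Gen1 memory plant 1 (31.2) was below nonmemory plant 2 (31.4). AOC1 rose by 0.52 against Gen1 WT (edgeR adjusted p = 0.0106), and against nonmemory it missed the fold threshold narrowly at 0.4972 (edgeR adjusted p = 0.0174). Without Gen1 memory replicate 1, nonmemory replicate 2 or nonmemory replicate 3 it was called, with log2 fold changes of 0.61, 0.57 and 0.52, and RLE size factors also took it past the threshold at 0.5014. In Gen5 it had 3187, 6837 and 2727 in memory and 2676, 2865 and 2936 in WT, overlapping, and the log2 fold change, 0.59 (edgeR adjusted p = 0.161), was 0.06 without Gen5 memory replicate 2. The Gen1 WT call was lost without Gen1 memory replicate 2 or 3 or Gen1 WT replicate 1, with raw library scaling (0.34) and in a fit of all 15 plants (edgeR adjusted p = 0.12).

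AOC2, the most abundant cyclase transcript, had 29050.1, 33406 and 35536 normalized counts in Gen1 memory and 37096, 50905 and 33770.5 in Gen5 memory. The other 9 plants lay between 26445 and 32761. Log2 fold changes were 0.15, 0.20 and 0.35 and none was called, and the Gen5 value was 0.15 without Gen5 memory replicate 2. AOC1 and AOC2 followed each other across the 15 plants (Pearson r = 0.932 of log2 normalized counts, a description over plants of 5 groups).

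AOC3 was lower in most memory plants. Gen1 memory had 499, 308 and 293 normalized counts and Gen5 memory 183, 436 and 353. Nonmemory plants had 314, 783 and 848, Gen1 WT 792, 621 and 477 and Gen5 WT 661, 648 and 465. All 3 Gen5 memory plants were below all Gen5 WT plants, and AOC3 fell by 0.87 on the log2 scale there (edgeR adjusted p = 0.0458). That call held in only 2 of 6 fits with a plant left out and was lost in a fit of all 15 plants. Against nonmemory and Gen1 WT the log2 fold changes were -0.82 (edgeR adjusted p = 0.125) and -0.77 (edgeR adjusted p = 0.0541). Without nonmemory replicate 1 AOC3 was called lower than in nonmemory, with a log2 fold change of -1.15, and without Gen1 memory replicate 1 or Gen1 WT replicate 3 it was called lower than in Gen1 WT. DESeq2 also called AOC3 lower in both Gen1 comparisons (-0.82 and -0.76). Raw library scaling (-0.95) and the replicate block (-0.78, edgeR adjusted p = 0.00461) gave the call against Gen1 WT.

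OPR3, the peroxisomal reductase required for most jasmonate synthesis, had 6219, 6527 and 6164 normalized counts in Gen1 memory and 5852, 8766 and 5898 in Gen5 memory. Nonmemory plants had 9706, 11909 and 12426, Gen1 WT 8201, 9201 and 8914, and Gen5 WT 11155, 10974 and 9613. Within each comparison memory and control plants did not overlap. OPR3 fell by 0.84 ± 0.101 against nonmemory (SE, edgeR adjusted p = 0.000734) and by 0.63 ± 0.157 in Gen5 (edgeR adjusted p = 0.014). Against Gen1 WT its log2 fold change was -0.46 ± 0.0723 (edgeR adjusted p = 0.00305), under the fold threshold. It passed without Gen1 WT replicate 1 (-0.51) and with raw library scaling (-0.65). The nonmemory call held without any plant, and the Gen5 call was lost without Gen5 WT replicate 2 (edgeR adjusted p = 0.0517).

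AOS and OPR3, a plastid and a peroxisome step on either side of the cyclase, differed in their ratio between memory and other plants. AOS was 3.75 to 5.42 times OPR3 per kb in memory plants (median 4.84) and 2.03 to 2.74 times in the others (median 2.45), without overlap. Across the 15 plants LOX4 followed OPR3 (Pearson r = 0.914) and AOC3 (r = 0.9). Within groups, after each group's mean was subtracted, r was 0.768 and 0.911. LOX4 and AOS had r = -0.701 over all plants and 0.337 within groups. These plants share their groups and libraries, so the values are descriptions.

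VSP2 reached 1830.1, 3241 and 4439 normalized counts in the Gen1 memory plants, against 1081, 1298 and 1631 in nonmemory. Gen1 WT had 1170.4, 1644 and 1568, so every Gen1 memory plant was above every Gen1 control. It rose by 1.25 ± 0.305 against nonmemory (SE, edgeR adjusted p = 0.0149) and by 1.13 ± 0.301 against Gen1 WT (edgeR adjusted p = 0.0254). Gen5 memory plants had 2284, 6804 and 1903 and Gen5 WT plants 1490.4, 1577 and 2392, which overlapped. In Gen5 the log2 fold change, 1.01 (edgeR adjusted p = 0.115), became 0.20 without Gen5 memory replicate 2. The nonmemory call was lost without nonmemory replicate 1 or 2, and the Gen1 WT call without Gen1 memory replicate 2 or any one Gen1 WT plant, with log2 fold changes of 0.99 or more in each such fit.

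VSP1 was called by edgeR in no comparison with all plants. Its normalized counts were 472, 791 and 1033 in Gen1 memory, 273, 474 and 1177 in nonmemory and 538, 743 and 569 in Gen1 WT. Gen5 WT plants had 778, 742 and 1344, and Gen5 memory plants 462, 5392 and 592. The log2 fold change in Gen5, 1.16 (edgeR adjusted p = 0.312), thus rested on plant 2. Without it VSP1 was called lower in Gen5 memory, at -0.86 on the log2 scale (edgeR adjusted p = 0.0363). Without Gen1 memory replicate 1 it was called higher than in Gen1 WT, at 0.59 (edgeR adjusted p = 0.0474), beside 0.32 with all plants.

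Although VSP1 and VSP2 are neighbours of similar sequence, their balance varied. VSP1 was 0.264 to 0.292 times VSP2 per kb in Gen1 memory, 0.286 to 0.818 times in nonmemory and 0.412 to 0.521 times in Gen1 WT. It was 0.533 to 0.637 times VSP2 in Gen5 WT, and 0.229, 0.898 and 0.352 times in the 3 Gen5 memory plants. Plants with much VSP1 had much VSP2 (Pearson r = 0.785 over 15 plants, 0.911 within groups). VSP2 also followed AOC1 (r = 0.907).

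Gen5 memory plant 2 was looked at after its values were seen, and no other plant was counted in this way. Its level was higher than the mean of plants 1 and 3 by a log2 ratio over 1 in 3 of 10 members and in 11 of 62 other jasmonate genes averaging 100 normalized counts or more, and in 195 of all 16999 such genes, 1.15%. The jasmonate genes included JRG21 (AT3G55970), a jasmonate oxidase, with 34.6, 668 and 167 normalized counts in plants 1, 2 and 3, the defensin gene PDF1.2A with 697, 3554 and 483 and the lectin gene JR1 with 2565, 10324 and 2685. The touch-induced sum in plant 2 was 15178, between those of plants 1 and 3 (8896 and 15436).

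**Figure D3:**
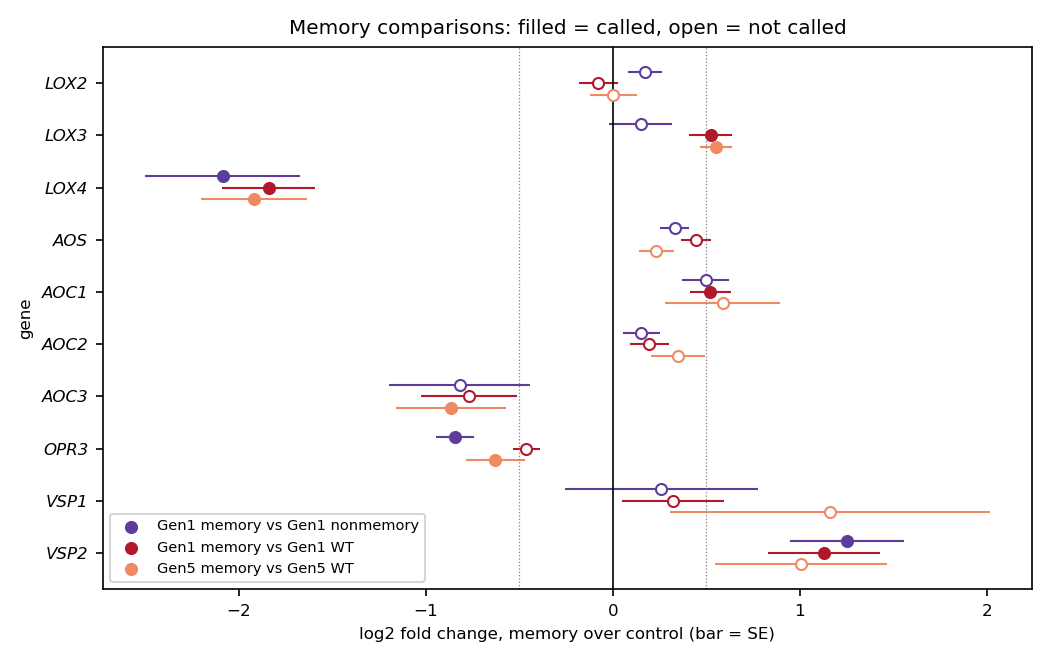
Log2 fold changes of memory over control with SE (bars) for each member in the 3 memory comparisons, 3 plants per group. Filled points were called, open points were not, and dotted lines mark the fold threshold of 0.5. LOX4 lies near -2 in each comparison, while LOX3 and VSP2 lie above 0 but were not called in every comparison.

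Counted together, 1 of 10 members was called higher and 2 lower against nonmemory, where 11.1% of 19760 tested genes were called higher and 12.2% lower. Against Gen1 WT 3 were higher and 1 lower, beside 9.52% and 10.5% of all genes. In Gen5 1 was higher and 3 lower, beside 13.3% and 13.7%. With 10 genes these counts are not far from the background, and the members are described here one by one for that reason. Median log2 fold changes of the members were 0.16, 0.26 and 0.29, against 0.01, -0.01 and 0.01 over all genes.

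Comparisons among the controls called no member. Nonmemory against Gen1 WT gave 0 calls by edgeR and 0 by DESeq2, with 3 members at an unadjusted p under 0.05 (2.82% of all genes were called higher and 4.89% lower). The smallest adjusted p was that of OPR3, 0.37 higher on the log2 scale (edgeR adjusted p = 0.0364) and under the fold threshold. Gen5 WT against Gen1 WT gave 0 calls by edgeR and 1 by DESeq2, VSP1, with 4 members under an unadjusted 0.05 (background 4.69% and 6.05%). AOC1 differed there by 0.40 (edgeR adjusted p = 0.00403). Nonmemory against Gen5 WT gave 0 calls by either tool and 3 members under 0.05 (background 0.577% and 1.12%).

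Between memory generations, 0 of 10 members were called in Gen5 memory against Gen1 memory, by edgeR or DESeq2, and 0 had an unadjusted p under 0.05. Across all genes edgeR called 0% higher and 0% lower there, with 353 of 19716 genes at an unadjusted p under 0.05 and 6 called by DESeq2. Whether the memory effect differed between Gen1 and Gen5, tested as an interaction on 12 plants, gave calls for 0 members with either tool and 0 under an unadjusted 0.05 (background 2.36% higher and 2.89% lower). For LOX4 this difference was -0.09 on the log2 scale, with a 95% interval from -1.04 to 0.87, so a sizeable difference cannot be told from none. For OPR3 it was -0.17 (-0.61 to 0.27) and for VSP1 0.84 (-1.53 to 3.2).

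The wider pathway was read from 76 other jasmonate genes, which were also listed with earlier results of these data known. Against nonmemory 12 of 70 tested genes were called higher (17.1%) and 17 lower (24.3%). Against Gen1 WT 7 of 69 were higher (10.1%) and 17 lower (24.6%), and in Gen5 8 of 68 were higher (11.8%) and 10 lower (14.7%). Over all genes the shares were 11.1% and 12.2%, 9.52% and 10.5%, and 13.3% and 13.7%, so the Gen5 shares were near the background. With raw library scaling 9 were higher and 21 lower against nonmemory, 4 and 25 against Gen1 WT and 6 and 15 in Gen5. That scaling shifted log2 fold changes over all genes by a median of -0.152, -0.185 and -0.172 in these comparisons. Shares of all genes called under it are not given here, so these counts have no background beside them. Without Gen5 memory replicate 2 the Gen5 count of lower genes was 20. With one plant left out, lower genes numbered 9 (without nonmemory replicate 2) to 15 against nonmemory and 15 to 18 against Gen1 WT. The Gen1 memory plants are shared by both Gen1 comparisons, so their values are given side by side below for genes called the same way in each comparison.

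Calls among JAZ repressor genes were in one direction, as were those of the touch-induced genes. Against nonmemory 7 of 12 tested were called lower, against Gen1 WT 5 of 12 and in Gen5 3 of 11, and none was called higher in any of the 3. These counts depended on single plants and were 3 to 6, 5 to 8 and 3 to 8 with one plant left out. Against nonmemory the count was 3 without nonmemory replicate 2 and 4 without Gen1 memory replicate 1 or 3 or nonmemory replicate 3. It was 8 against Gen1 WT without Gen1 memory replicate 2, and 8 in Gen5 without Gen5 memory replicate 2. With raw library scaling, which shifted all genes downward as given above, the counts were 8, 9 and 4. JAZ6 had 3593 to 4005 normalized counts in Gen1 memory, 3364, 6644 and 3198 in Gen5 memory and 6304 to 12987 in the other 9 plants, with only Gen5 memory plant 2 inside the range of the controls. JAZ7, a repressor gene with low counts, had 3.25 to 18.1 in memory plants and 91.9 to 531 in the others. JAZ6 fell in each comparison, with log2 fold changes of -0.94, -1.02 and -1.48, and so did JAZ7, with -4.45, -5.70 and -4.93 against nonmemory, Gen1 WT and Gen5 WT.

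**Figure D4:**
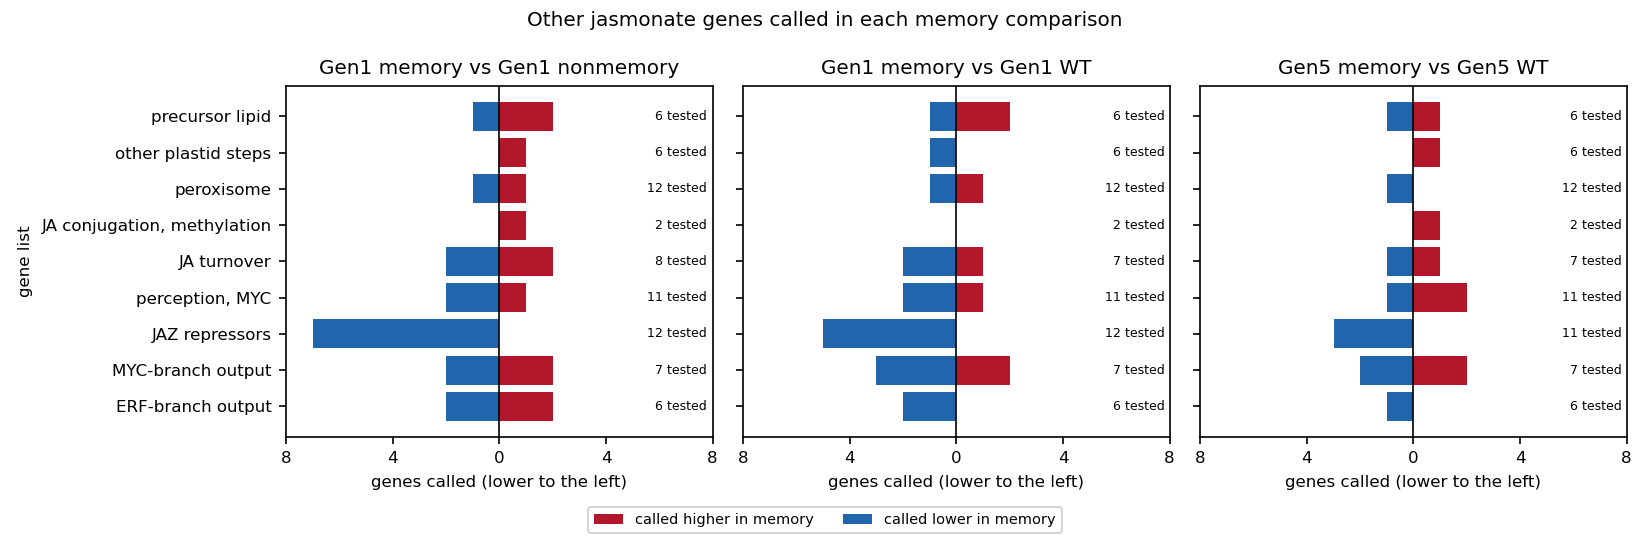
Number of genes called higher (right) or lower (left) in memory for 9 lists of other jasmonate genes in the 3 memory comparisons, with the number tested at the right edge. JAZ genes were called lower only, 7 of 12, 5 of 12 and 3 of 11, while the other lists with 6 or more tested genes had between 0 and 3 calls in each direction.

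Genes of perception and conjugation were less uniform. COI1, the receptor gene, was called in none of the 3 comparisons (log2 fold changes 0.13, -0.22 and 0.26). MYC2, the main activator, had log2 fold changes of 0.08 and -0.17 in the Gen1 comparisons and rose by 1.17 in Gen5 (edgeR adjusted p = 0.00148). Its level was 5839.8, 9104 and 6691 normalized counts in Gen5 memory and 3432, 3591 and 2633 in Gen5 WT, but 7713, 8229 and 7946 in Gen1 WT. The difference of the memory effect on MYC2 between generations was 1.33 (edgeR adjusted p = 0.00525 for the interaction). The WT level of MYC2 thus differed more between generations than that of the memory plants. JAR1 rose by 0.59 against nonmemory and 0.66 in Gen5, and its 0.47 against Gen1 WT (edgeR adjusted p = 0.00225) was under the fold threshold. NIG1 (AT5G46830), a bHLH gene, rose by 2.22, 2.27 and 2.40, and the corepressor gene TPL fell (-0.55, -0.69 and -0.70).

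Among downstream and turnover genes, directions were mixed, and log2 fold changes are given in the same order. The chlorophyllase gene CLH1 rose by 0.77, 0.53 and 1.32 and the NAC factor gene NAC019 by 1.18, 1.11 and 2.21, whereas NAC055 fell (-1.71, -1.31 and -1.31). CORI3, a cystine lyase gene and common jasmonate marker, fell (-0.75, -0.60 and -0.56), and so did ORA59, an activator of the branch shared with ethylene (-1.03, -0.92 and -1.75). CYP94C1, an oxidase of the active conjugate, fell (-1.11, -1.96 and -2.98), as did the OPR3 relative OPR1 (-1.47, -1.24 and -1.97). Of the lipase-family loci, AT1G02660 fell (-1.53, -1.42 and -2.48) and AT3G62590 rose (1.32, 0.99 and 1.19).

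Other steps of synthesis and output had calls in both directions. A list of 12 peroxisomal and OPR3-related genes holds the transporter PXA1, the reductase relatives OPR1 and OPR2, and enzymes that activate and shorten the OPDA product. In it AIM1, a beta-oxidation gene, was called higher in each Gen1 comparison (0.60 and 0.59), OPR1 was called lower in all 3, and no other gene was called. In Gen5 AIM1 was not called, although memory plants (19532 to 20381 normalized counts) were above WT plants (14925 to 15383). Of the genes for precursor supply, 6 were tested, with 2 higher and 1 lower in each Gen1 comparison and 1 of each in Gen5, and all of these calls were of lipase-family loci. Genes of MYC-branch output other than VSP1 and VSP2 were 7 in all, with VSP3 among them. They split into 2 higher and 2 lower against nonmemory, 2 and 3 against Gen1 WT and 2 and 2 in Gen5. Touch-induced genes, by contrast, were called lower for 5, 6 and 5 of 6 tested, and their part in the jasmonate values was not tested.

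The genes outside the list most like each of 4 members were found by Pearson r of log2 normalized counts over 15 plants, among 16993 genes averaging 100 counts or more. For AOS they were AT5G08570 (r = 0.954), AT4G08170 (r = 0.952) and PLAT1 (AT4G39730, r = 0.951). For LOX3 they were AT4G21060 (r = 0.917), AT3G28700 (r = 0.901) and AT1G49450 (r = 0.889). VSP2 was most like AT3G62190 (r = 0.898), AT1G50020 (r = 0.897) and PDE334 (AT4G32260, r = 0.89). LOX2, with little spread, had lower values: AT1G73325 (r = 0.808), GLYR1 (AT3G25530, r = 0.806) and AT1G44790 (r = 0.793). These are the highest of many values and are given without a test.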

How the data were processed

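RNA was sequenced from 15 plants as 150-base reads. Per the labels and the study's methods, the reads were aligned to TAIR10 with STAR 2.7.0a and counted per gene with QoRTs, and the deposited tables hold these raw counts for each plant. Rows of reads without a feature (0.637% to 0.802%) or ambiguous between genes (0.242% to 0.291%) were left out. Whether counting used strand is not given in the sources used here. Replicates were separate plants, and no pair of plants differed by as little as sampling noise.

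Counts were normalised by TMM, filtered by filterByExpr and tested with the quasi-likelihood F test of edgeR 4.0.16 in R 4.3.3, on the 6 plants of each comparison or the 12 of the interaction. P-values were adjusted by Benjamini-Hochberg over all tested genes. A gene was called where the adjusted p was below 0.05 and the log2 fold change exceeded 0.5 in either direction. The SE of a log2 fold change is its absolute value divided by the square root of the F statistic. Intervals of log2 fold changes are 95% intervals from this SE with 4 residual degrees of freedom (8 for the interaction). The tests draw on more degrees of freedom, so the intervals are wider than the p-values imply. AOS in Gen5, for example, had an unadjusted edgeR p of 0.0403 and an interval from -0.0305 to 0.495. In counts simulated for Gen5 WT against Gen1 WT over 19843 genes, 88 of 100 changes of log2 fold 1 and 100 of 100 of log2 fold 2 were recovered, with 8 false calls. Changes were set only in genes above a count floor, with the spread of WT plants. Between replicates, chi-square per degree of freedom was 12.3 to 52.8 in WT and 30.7 to 117 in memory. Recovery in the memory comparisons was not simulated. DESeq2 1.42.0, other scalings, filters and thresholds, a replicate block, a fit of all plants and leaving out each plant were tried. Promoters, positions and exon lengths came from the TAIR10.1 sequence and its RefSeq annotation.

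The members and the gene lists were chosen with earlier results of these data known. Named genes were all members, the listed jasmonate genes called the same way in all 3 memory comparisons, COI1, JAR1 and MYC2, and the 3 genes most like each of LOX2, LOX3, AOS and VSP2. AIM1, PXA1, OPR2, VSP3 and the tissue markers were named outside this rule. Gen5 memory plant 2 itself, and the genes named for it, were chosen after their values were seen.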

Additional observations from a re-analysis of the deposited data

How the results depend on the processing

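No count of called members moved by over 1.5 times with RLE size factors, raw library scaling, either filter or one fit of all plants, although RLE, raw scaling and the joint fit each changed single calls. Without a fold threshold the counts were 5 (main 3) against nonmemory, 1 (main 0) for nonmemory against Gen1 WT and 2 (main 0) for Gen5 WT against Gen1 WT, where DESeq2 gave 1. With a fold threshold of 1 on the log2 scale, 2 members were called against Gen1 WT and 1 in Gen5 (main 4 each). At an adjusted p under 0.01 the counts were 1 and 2. Leaving out single plants gave 3 to 4 against nonmemory, 2 to 6 against Gen1 WT, 2 to 5 in Gen5, 0 to 1 for nonmemory against Gen1 WT and 0 to 1 for nonmemory against Gen5 WT. The count against Gen1 WT was 2 without Gen1 memory replicate 2 or 3 or Gen1 WT replicate 1, and that in Gen5 was 2 without Gen5 memory replicate 1 or Gen5 WT replicate 2. The control counts of 1 came without nonmemory replicate 1. VSP1 turned from 1.16 to -0.86 on the log2 scale in Gen5 without Gen5 memory replicate 2, the lowest of its values with one plant left out (highest 1.64). Raw library scaling shifted the median of all genes by -0.15, -0.18 and -0.17 in the 3 memory comparisons, and under it LOX3 lost its calls against Gen1 WT and in Gen5, AOC1 lost that against Gen1 WT, and AOC3 and OPR3 were called lower than in Gen1 WT. The causes were not tested.

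Replicate numbers were shared between groups, and with 3 plants per group whether they pair the plants cannot be settled. The mean correlation of same-numbered plants was 0.295 for Gen5 WT against Gen1 WT (other pairs -0.145). In the 3 memory comparisons it was -0.02, 0.22 and -0.15, beside 0.01, -0.11 and 0.08 for other pairs. No comparison had every same-numbered pair over 0.1. With the replicate block 3, 5 and 4 members were called in the 3 memory comparisons, and 0 in each other comparison. With likeness limited to genes averaging 1000 counts or more, the genes most like LOX3 were all others and those of AOS and VSP2 stayed. TMM factors were 0.878 to 0.955 in memory plants and 1.02 to 1.08 in the others. Levels in CPM, which leave these factors out, were computed as well. In them AOS overlapped between memory and the other plants, and LOX2 and AOC1 between Gen1 memory and nonmemory. Sets of 3 plants limit all comparisons.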
